A study of Mus musculus with 8 samples.

Results

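The 9 genes described here encode enzymes of the hexosamine pathway, of amino sugar recycling and of O-GlcNAc transfer: Gfpt1, Gfpt2, Gnpnat1, Pgm3, Uap1, Ogt, Nagk, Gnpda1 and Gnpda2. They were chosen by name, with earlier results of these data known, and each was read from the probe set annotated to that gene alone. All 9 had such a probe set among the 22180 genes that did, and all 9 were among the 13308 genes that passed the filter on dim signal. The RNA came from the mouse line C2C12, whose myoblasts fuse in the dish to multinucleate myotubes, and was hybridised to Affymetrix Mouse Gene ST arrays. The 4 groups, with 2 biological replicates each, were Baf60c knockdown myotubes at 10 mM glucose, Baf60c knockdown myotubes at 1 mM glucose, control myotubes at 10 mM glucose and control myotubes at 1 mM glucose. All myoblasts had been transduced with a retrovirus, carrying an shRNA against Baf60c (siBaf60c; now named Smarcd3, part of the SWI/SNF-type BAF chromatin remodeller) or a scrambled control (siScramble), and were then differentiated and kept at the stated glucose concentration for 12 h. The labels do not give the promoter that drove the shRNA or the number of sequences used. All cultures are of 1 cell line, and the labels name no step that separates myotubes from unfused cells.

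The hexosamine pathway branches from glycolysis at fructose 6-phosphate and ends in UDP-GlcNAc, the sugar donor for glycans and for O-GlcNAc, a single sugar placed on serines and threonines of nuclear and cytosolic proteins. Gfpt1 and Gfpt2 encode the 2 forms of the enzyme that opens the pathway with glutamine as the nitrogen donor, Gnpnat1 the acetyltransferase, Pgm3 the mutase that moves the phosphate and Uap1 the pyrophosphorylase that makes UDP-GlcNAc. Ogt places O-GlcNAc on proteins and Oga removes it. Nagk returns salvaged N-acetylglucosamine to the pathway, and the deaminases Gnpda1 and Gnpda2 run the first step backwards towards glycolysis. Because its substrates include glucose, glutamine, acetyl-CoA and UTP, it is commonly described as a sensor of nutrient supply.

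Values are RMA log2 expression, the authors' background-corrected and normalized intensity. Each change is given on the log2 scale with its SE (limma, 2 arrays in each group), with p adjusted over all 13308 genes and called at an adjusted p under 0.05. Replicates correlated at r = 0.987 to 0.990 across genes, which are not independent replicates. The probe set shared by Smarcd3 and Chpf2, the only one for the target, was lower in knockdown cells, by 3.95-fold at 10 mM glucose (adjusted p = 0.0171) and by 6.15-fold at 1 mM (adjusted p = 0.00313). The share of Smarcd3 in that signal was not resolved. With a mean of 2.89 in knockdown cells at 1 mM, under 3, signal above background was not shown there. The same probe set was 2.48-fold higher at 10 mM than at 1 mM in knockdown cells (adjusted p = 0.00442). In control cells that change was 0.67 ± 0.22 (adjusted p = 0.06). The mean log2 level of 6 myotube markers was 9.21 and 9.25 in knockdown cells at 10 mM, 8.18 and 8.27 in knockdown cells at 1 mM, 10.08 and 10.22 in control cells at 10 mM, and 9.49 and 9.54 in control cells at 1 mM. The lowest of them was the creatine kinase gene Ckm, at 3.82 and 4.02 in knockdown cells at 1 mM, and the other 5 stayed above 7.55 on every array. Of 8 markers of other cell types 7 were measured, and their mean lay between 2.44 and 2.75 on the 8 arrays. Cd68, Ptprc, Cdh5 and Adipoq passed the filter on dim signal. Cd68 lay between 3.31 and 4.72, and in knockdown cells at 1 mM it read 4.51 and 4.72, above Ckm. Cdh5 reached 3.96 at its highest. The leukocyte markers Cd68 and Ptprc were called lower at 10 mM glucose in knockdown cells. In control cells Cd68 was at -0.88 ± 0.28 (limma, adjusted p = 0.0535) and Ptprc at -0.19 ± 0.17 (adjusted p = 0.476). The macrophage marker Adgre1, the endothelial marker Pecam1 and the epithelial marker Epcam did not pass the filter on dim signal, and RMA values have no true zero. In bulk RNA, fewer cells of a type and less RNA per cell cannot be told apart.

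The comparison of 10 mM with 1 mM glucose asks how these genes differ between myotubes kept at a higher and at a low glucose concentration. Gnpnat1, the acetyltransferase, fell to about a 3-fold lower level at 10 mM in both knockdown and control cells. Gfpt2 was also called lower in control cells and Gfpt1 in knockdown cells, and no member was called higher. In knockdown cells 2 of the 9 genes were called lower and 0 higher, beside 25.1% of all tested genes called, 14.5% higher and 10.6% lower. In control cells 2 of the 9 were again called lower and 0 higher, beside 25.3% of tested genes called, 13.2% higher and 12.1% lower. With arrays centred on their median, 46.9% of all calls in knockdown cells and 46.4% in control cells were higher, against 57.9% and 52.2% as deposited, so the balance turned in both. The shares of members called were close to those of all genes, so the count alone sets these 9 genes apart in neither cell type. Replicates did not overlap for 8 of the 9 genes in knockdown cells and 5 of the 9 in control cells, beside 64.2% and 64.4% of tested genes. The myotube markers were called higher at 10 mM in 6 of 6 members in knockdown cells and 3 of 6 in control cells. In control cells the changes of all 6 lay between 0.35 and 1.21. The part of the markers in these values was not tested. The median change of the 9 genes was -0.38 in knockdown cells and -0.05 in control cells, beside 0.03 and -0.01 over all tested genes.

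**Figure D1:**
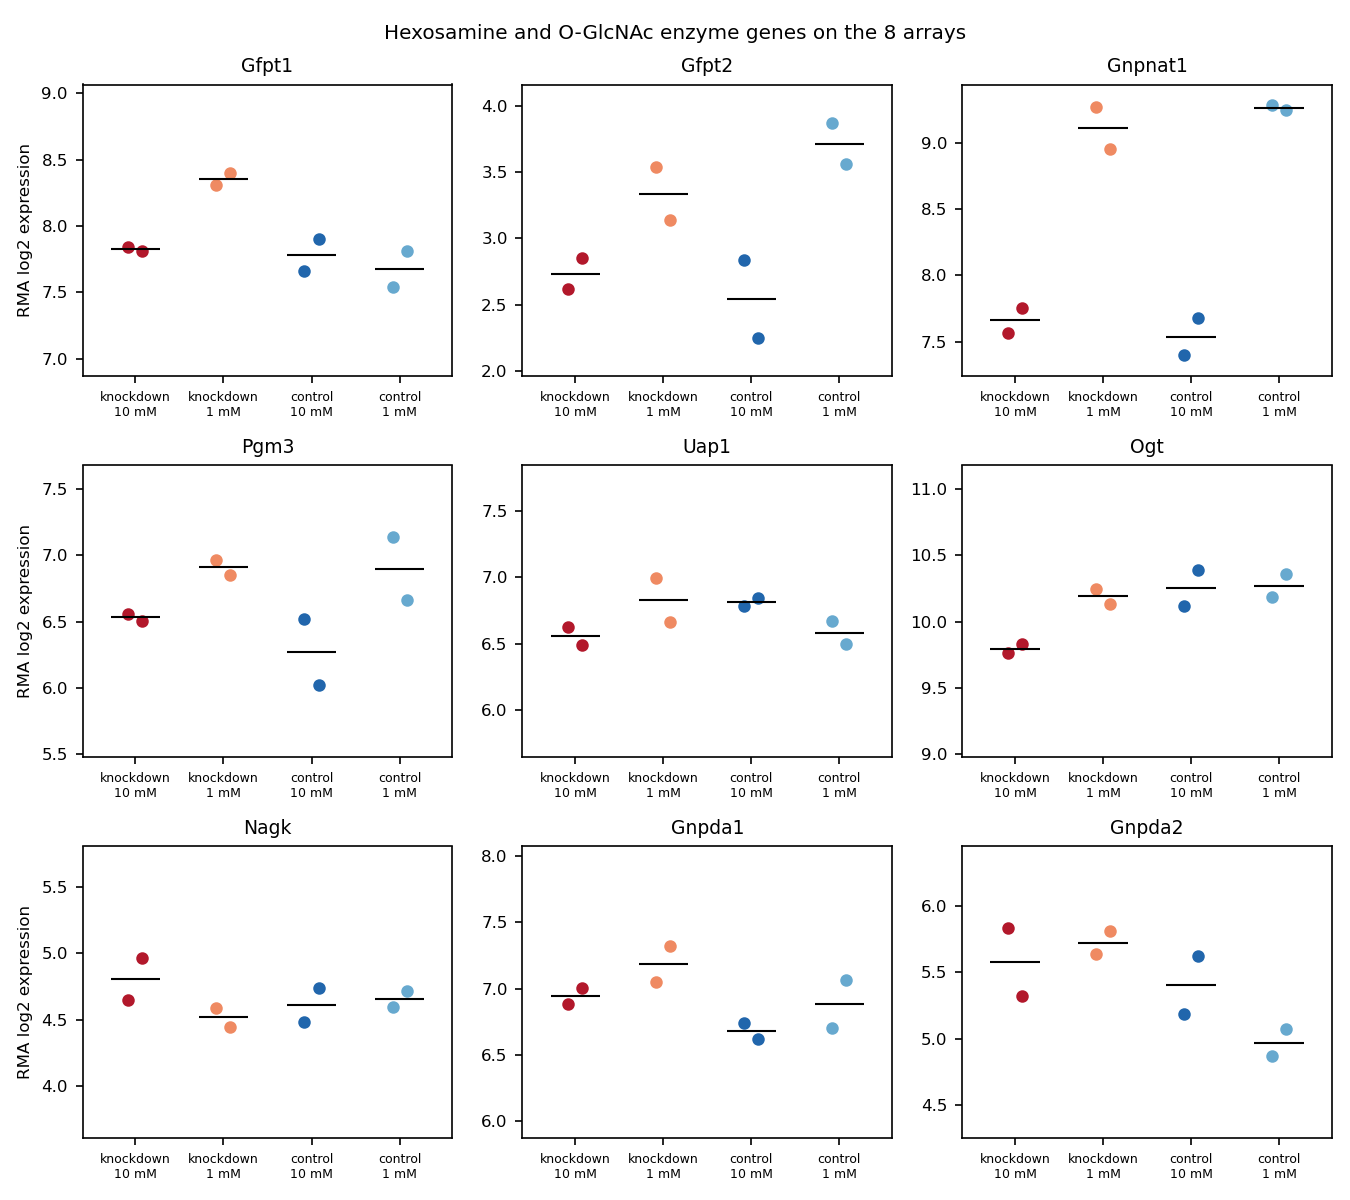
RMA log2 expression (y axis) of each of the 9 genes on the 8 arrays, with 1 point per array, a bar at the mean of the 2 replicates and the 4 groups along the x axis; every panel spans at least 2.2 log2 units. Gnpnat1 sits between 7.40 and 7.75 on the 10 mM arrays and between 8.95 and 9.28 on the 1 mM arrays.

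Gnpnat1 carries the acetylation step, where acetyl-CoA enters the pathway. It read 7.57 and 7.75 in knockdown cells at 10 mM, against 8.95 and 9.27 in knockdown cells at 1 mM. In control cells it read 7.40 and 7.68 at 10 mM and 9.25 and 9.28 at 1 mM. All 4 arrays at 10 mM thus lay below all 4 at 1 mM, and knockdown and control overlapped at each glucose level. The fall was 2.73-fold in knockdown cells (-1.45 ± 0.17, adjusted p = 0.00104) and 3.31-fold in control cells (-1.73 ± 0.17, adjusted p = 0.000637). Only 4.97% of tested genes in knockdown cells and 2.56% in control cells had a larger absolute change. The difference between the responses was 0.28 ± 0.24, with a 95% confidence interval of -0.28 to 0.83, and did not pass the test (adjusted p = 0.816).

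A further probe set, annotated to both Gnpnat1 and the pseudophosphatase gene Styx, gave a separate reading. It was at 5.05 and 5.16 in knockdown cells at 10 mM and at 6.41 and 6.48 in knockdown cells at 1 mM. In control cells it was at 4.66 and 5.28 at 10 mM and at 6.41 and 6.48 at 1 mM. The fall was 2.53-fold in knockdown cells (-1.34 ± 0.20, adjusted p = 0.00317) and 2.77-fold in control cells (-1.47 ± 0.20, adjusted p = 0.00245). How much of this signal belongs to Styx was not tested.

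The 2 forms of the first enzyme were called in different cell types, Gfpt1 in knockdown and Gfpt2 in control cells. Gfpt1, the broadly expressed form, read 7.81 and 7.84 in knockdown cells at 10 mM, against 8.31 and 8.40 in knockdown cells at 1 mM. Control cells read 7.66 and 7.90 at 10 mM and 7.54 and 7.81 at 1 mM. The high group was thus knockdown cells at 1 mM, and the other 3 groups lay together between 7.54 and 7.90. Gfpt1 fell 1.44-fold with glucose in knockdown cells (-0.53 ± 0.15, adjusted p = 0.0416) and was at 0.11 ± 0.15 in control cells (adjusted p = 0.657). The call in knockdown cells lay near the threshold: it was lost without any 1 of the 4 knockdown arrays (adjusted p between 0.0984 and 0.156) and when dim genes were kept (adjusted p = 0.0764). The difference between the 2 responses was -0.63 ± 0.21 and did not pass the test (limma, adjusted p = 0.585), so a difference between knockdown and control cells in the response of Gfpt1 was not shown.

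Gfpt2 read 2.62 and 2.85 in knockdown cells at 10 mM, against 3.14 and 3.54 in knockdown cells at 1 mM. Control cells read 2.25 and 2.83 at 10 mM and 3.56 and 3.87 at 1 mM. The replicates at 10 mM lay below those at 1 mM in each cell type. Gfpt2 fell 2.25-fold in control cells (-1.17 ± 0.24, adjusted p = 0.0114), and its change in knockdown cells was -0.60 ± 0.24 (adjusted p = 0.112). Its level was near the lower end of the scale, with both 10 mM means under 3, so signal above background was not shown there and the change may be understated. The call in control cells was lost without control replicate 1 at 1 mM (-1.02, adjusted p = 0.0672) and without control replicate 2 at 10 mM (-0.88, adjusted p = 0.0606). The difference between the responses was 0.57 ± 0.34 (adjusted p = 0.743).

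Upstream sequences of these 2 genes are shown to place the isozymes side by side. A difference between knockdown and control cells in the glucose response was shown for neither gene. Both are the 250 bases before the RefSeq start in GRCm38.p6, written 5′ to 3′ in the direction of the gene. Capitals mark matches, on either strand, to CCACG, part of the endoplasmic reticulum stress element, and to ACGTG, the core of the site of the stress transcription factor XBP1.
Gfpt1 (chr6:87042596-87042845, plus strand): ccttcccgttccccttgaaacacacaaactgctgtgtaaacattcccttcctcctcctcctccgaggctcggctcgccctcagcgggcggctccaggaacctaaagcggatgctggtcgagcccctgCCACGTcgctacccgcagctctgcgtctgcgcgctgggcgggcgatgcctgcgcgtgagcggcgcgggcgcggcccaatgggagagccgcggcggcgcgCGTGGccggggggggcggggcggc
Gfpt2 (chr11:49793905-49794154, plus strand): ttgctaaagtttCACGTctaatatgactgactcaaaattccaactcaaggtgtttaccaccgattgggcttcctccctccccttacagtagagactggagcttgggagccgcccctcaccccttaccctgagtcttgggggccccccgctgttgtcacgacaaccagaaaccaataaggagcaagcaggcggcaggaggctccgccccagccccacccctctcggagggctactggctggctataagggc
In Gfpt1 a CCACG match and an overlapping ACGTG match began 123 and 122 bases before the start, and a further CCACG match began 24 bases before it. Gfpt2 held 1 ACGTG match, 238 bases before the start. Of 32851 RefSeq promoters of the same length, 28.3% held CCACG and 16.6% held ACGTG, so both letter runs are common. TGATGNA, the first letters of the site shared by C/EBP factors and ATF4, was in 10.4% of promoters and in neither of these. Promoters of 7 of the 9 genes were available. Those of Gnpnat1 and Gnpda1 were not, so the motifs say nothing about these genes. Among the 5 available besides Gfpt1 and Gfpt2, Uap1 held 1 CCACG match, while Pgm3, Ogt, Nagk and Gnpda2 held none of the 3 motifs. A match in letters is not evidence of binding.

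Pgm3, the phosphate mutase between the acetyltransferase and Uap1, read 6.50 and 6.56 in knockdown cells at 10 mM, against 6.85 and 6.97 in knockdown cells at 1 mM. Control cells read 6.02 and 6.52 at 10 mM and 6.66 and 7.13 at 1 mM. All 4 arrays at 10 mM lay below all 4 at 1 mM, but the test was not passed in knockdown cells (-0.38 ± 0.22, adjusted p = 0.249) or in control cells (-0.63 ± 0.22, adjusted p = 0.0727). The value in control cells passed with the replicate block (adjusted p = 0.0408), the stricter filter (adjusted p = 0.0314), a trended, robust variance (adjusted p = 0.0222) and without control replicate 1 at 10 mM (-0.88, adjusted p = 0.045). Averaged over both cell types, a comparison of 4 arrays with 4 that was added after the values were seen, Pgm3 fell 1.42-fold (-0.50 ± 0.15, adjusted p = 0.0348). In the same average Gnpnat1 fell by 1.59 ± 0.12 (adjusted p = 7.53e-05) and Gfpt2 by 0.89 ± 0.17 (adjusted p = 0.00524), while Gfpt1 was at -0.21 ± 0.11 (adjusted p = 0.165). It called 3 of the 9 members, all lower, beside 39.1% of tested genes called, 21.3% higher and 17.8% lower.

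Uap1, which makes UDP-GlcNAc itself, read 6.49 and 6.62 in knockdown cells at 10 mM, against 6.66 and 7.0 in knockdown cells at 1 mM. Control cells read 6.78 and 6.85 at 10 mM and 6.50 and 6.67 at 1 mM. The replicates were lower at 10 mM in knockdown cells and higher at 10 mM in control cells, without overlap in either. Neither change passed the test, at -0.27 ± 0.16 in knockdown cells (adjusted p = 0.251) and 0.23 ± 0.16 in control cells (adjusted p = 0.322). Averaged over both cell types the change of Uap1 was -0.02 ± 0.11, with a 95% confidence interval of -0.28 to 0.24.

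**Figure D2:**
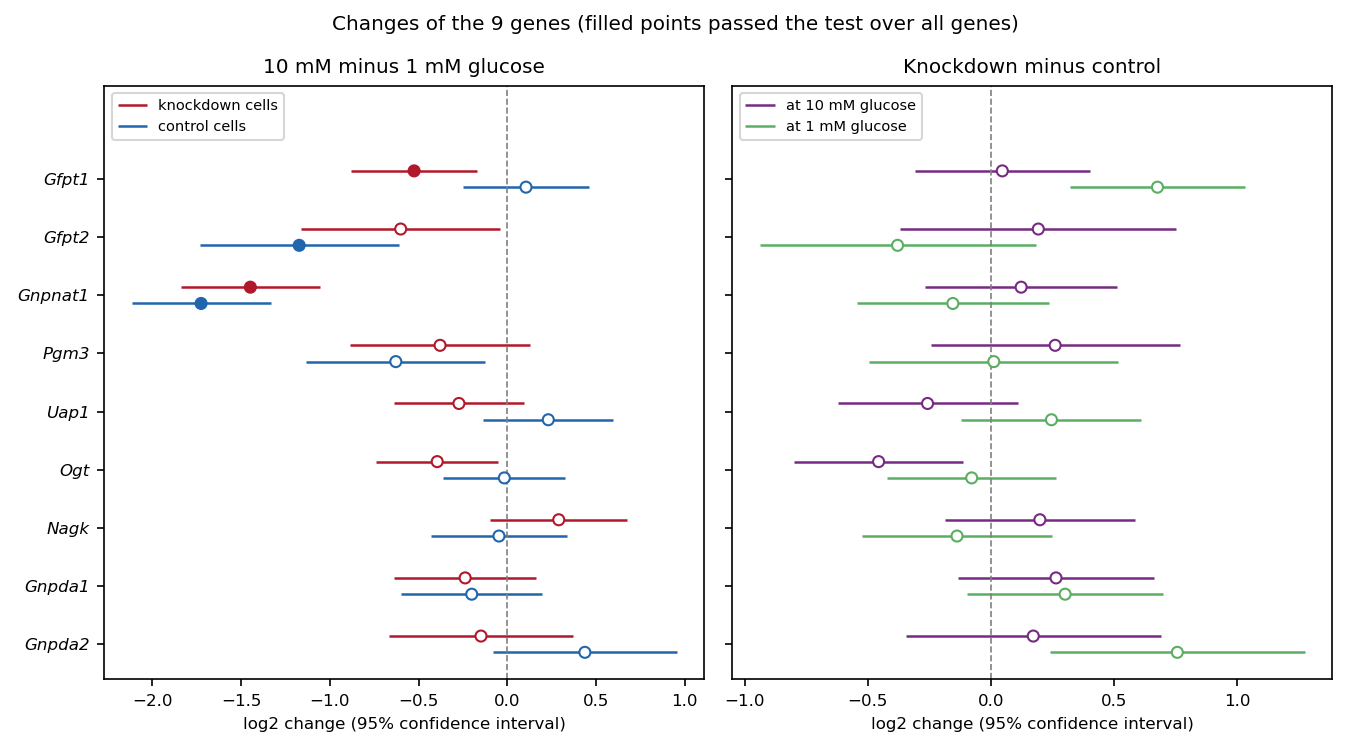
Log2 change on the x axis of each of the 9 genes (rows) with its 95% confidence interval from limma, n = 2 arrays per group; the left panel gives 10 mM minus 1 mM glucose in knockdown and in control cells, the right panel knockdown minus control at each glucose level, and filled points passed the test over all genes. The 4 filled points are Gnpnat1 in both cell types, Gfpt1 in knockdown cells and Gfpt2 in control cells, all to the left of 0, and the right panel has none.

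Ogt, the transferase that uses UDP-GlcNAc on nuclear and cytosolic proteins, read 9.76 and 9.83 in knockdown cells at 10 mM, against 10.13 and 10.25 in knockdown cells at 1 mM. In control cells it read 10.11 and 10.39 at 10 mM and 10.18 and 10.35 at 1 mM. Knockdown cells at 10 mM were the low group, and the other 3 overlapped. With glucose Ogt was at -0.39 ± 0.15 in knockdown cells (adjusted p = 0.0923) and at -0.02 ± 0.15 in control cells (adjusted p = 0.949), with a 95% confidence interval of -0.36 to 0.33 in control cells. The value in knockdown cells passed the test with arrays centred on their median (-0.49, adjusted p = 0.0421), with the stricter filter (adjusted p = 0.0466) and with a trended, robust variance (adjusted p = 0.00986). The difference between the responses was -0.38 ± 0.21 (adjusted p = 0.715).

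Oga, the hydrolase that removes O-GlcNAc and is not among the 9 genes, rose with glucose in both cell types. It read 8.56 and 8.60 in knockdown cells at 10 mM, against 7.09 and 7.12 in knockdown cells at 1 mM. Control cells read 8.48 and 8.58 at 10 mM and 7.48 on both arrays at 1 mM. The 10 mM arrays were all above the 1 mM arrays, a rise of 2.78-fold in knockdown cells (1.47 ± 0.12, adjusted p = 0.000284) and 2.07-fold in control cells (1.05 ± 0.12, adjusted p = 0.0011). A second Oga probe set was dim, with levels from 2.19 to 2.88, and was not called in either cell type. Eogt, which adds the same sugar to secreted proteins in the endoplasmic reticulum, was at 0.23 ± 0.19 in knockdown cells (adjusted p = 0.423) and at -0.01 ± 0.19 in control cells (adjusted p = 0.987).

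**Figure D3:**
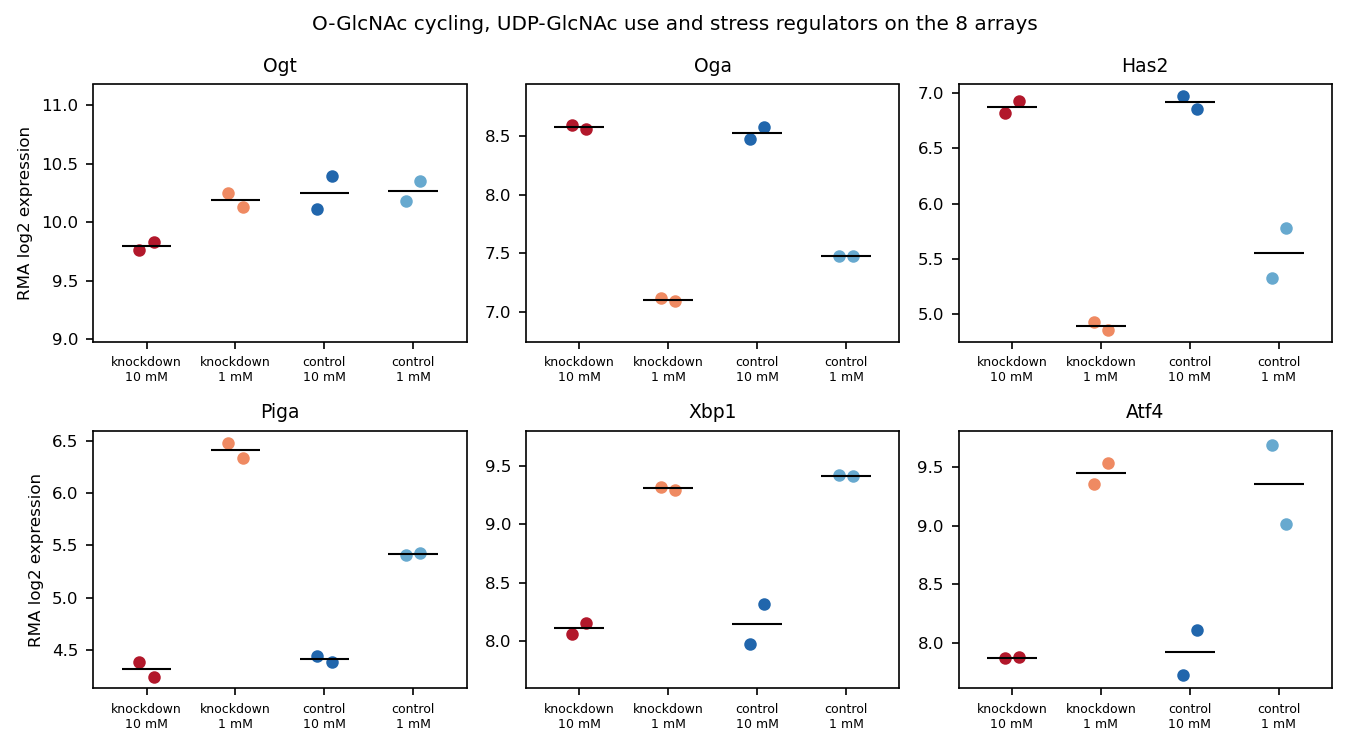
RMA log2 expression (y axis) of Ogt, Oga, Has2, Piga, Xbp1 and Atf4 on the 8 arrays, with 1 point per array, a bar at the mean of the 2 replicates and the 4 groups along the x axis. Oga and Has2 are higher on every 10 mM array than on any 1 mM array, Piga, Xbp1 and Atf4 are lower, and for Ogt knockdown cells at 10 mM lie below the other groups.

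The recycling enzymes did not pass the test. Nagk, the N-acetylglucosamine kinase, read 4.65 and 4.97 in knockdown cells at 10 mM and 4.44 and 4.59 in knockdown cells at 1 mM, while control cells read 4.48 and 4.74 at 10 mM and 4.59 and 4.72 at 1 mM. Its changes were 0.29 ± 0.16 in knockdown cells (adjusted p = 0.248) and -0.05 ± 0.16 in control cells (adjusted p = 0.867), and its 4 group means lay within 0.29 of each other. Gnpda2 read 5.32 and 5.83 in knockdown cells at 10 mM and 5.64 and 5.81 in knockdown cells at 1 mM, while control cells read 5.18 and 5.63 at 10 mM and 4.87 and 5.07 at 1 mM. The control cells at 1 mM were the low group. Knockdown cells at 10 mM overlapped with both remaining groups, which lay just apart from each other. Its changes with glucose were -0.15 ± 0.22 in knockdown cells (adjusted p = 0.678) and 0.44 ± 0.22 in control cells (adjusted p = 0.194).

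Gnpda1, the other deaminase, read 6.89 and 7.01 in knockdown cells at 10 mM and 7.05 and 7.32 in knockdown cells at 1 mM, while control cells read 6.62 and 6.74 at 10 mM and 6.70 and 7.06 at 1 mM. Its changes were -0.24 ± 0.17 (adjusted p = 0.359) in knockdown cells and -0.20 ± 0.17 (adjusted p = 0.433) in control cells. A probe set annotated to both Gnpda1 and the predicted gene Gm8615 differed from this. That shared probe set fell 1.53-fold in knockdown cells (-0.62 ± 0.12, adjusted p = 0.0103) and 1.63-fold in control cells (-0.70 ± 0.12, adjusted p = 0.00654). Because it covers both genes, whether Gnpda1 transcripts fell was not resolved.

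**Figure D4:**
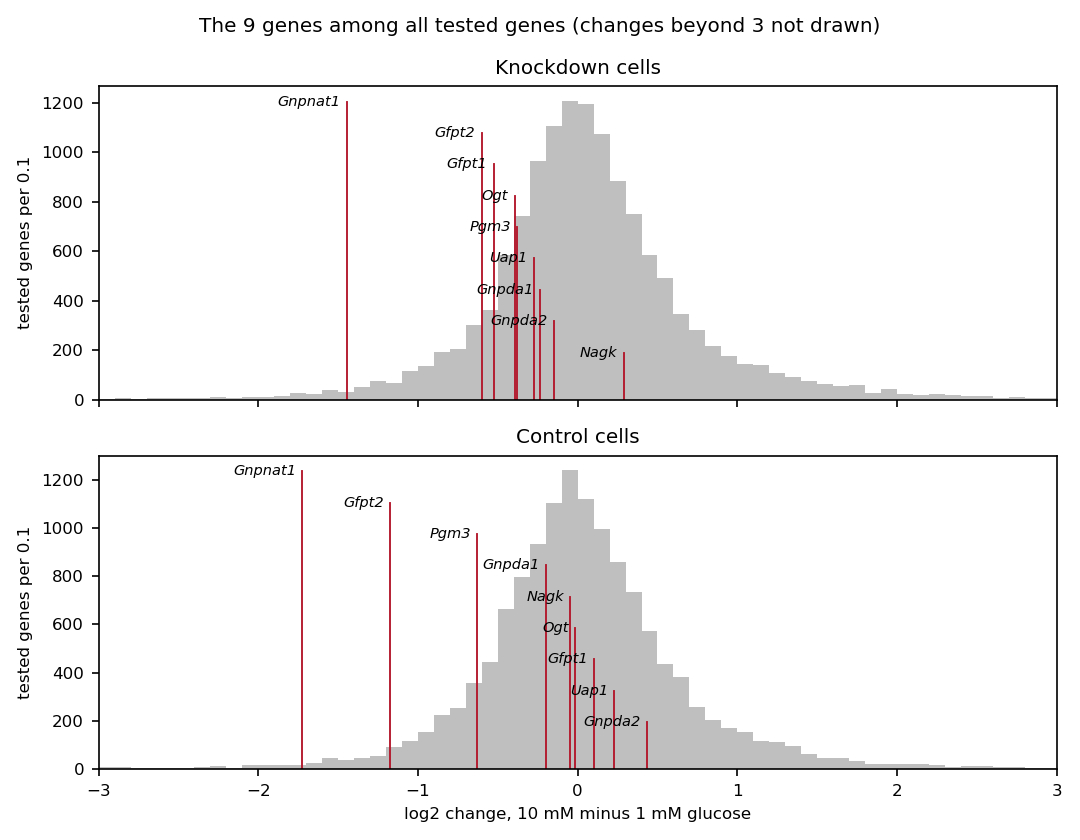
Histogram of the log2 change at 10 mM minus 1 mM glucose (x axis) over all tested genes in bins of 0.1 (y axis, number of genes) in knockdown cells above and control cells below, with a red line at each of the 9 genes; line height only spaces the names. Gnpnat1 lies in the lower tail at -1.45 and -1.73, and most other members lie within the bulk of all genes.

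The comparison of knockdown with control cells asks which of these genes depend on Baf60c at each glucose level. At 10 mM glucose 0 of the 9 genes were called by limma, beside 1.12% of all tested genes, 0.428% higher and 0.691% lower. At 1 mM 0 were called, beside 1.49%, 0.233% higher and 1.25% lower. Averaged over both glucose levels, as added later, 0 were called, beside 4.31%, 1.6% higher and 2.71% lower. Replicates did not overlap for 3 of the 9 at 10 mM and 4 of the 9 at 1 mM, beside 45.6% and 47.1% of tested genes. At an unadjusted p under 0.05 there was 1 member at 10 mM, Ogt, and there were 2 at 1 mM, Gfpt1 and Gnpda2, beside 1807 and 2115 of the 13308 tested genes, so these counts are near the background. Ogt was at -0.46 ± 0.15 at 10 mM (adjusted p = 0.237) and -0.08 ± 0.15 at 1 mM (adjusted p = 0.838), and passed the test at 10 mM only with a trended, robust variance (adjusted p = 0.0262). Gfpt1 was at 0.05 ± 0.15 at 10 mM (adjusted p = 0.938) and 0.68 ± 0.15 at 1 mM (adjusted p = 0.0898), where the knockdown arrays lay above the control arrays. Its value at 1 mM passed with the stricter filter (adjusted p = 0.028) and with the trended, robust variance (adjusted p = 0.00804). Gnpda2 was at 0.17 ± 0.22 at 10 mM (adjusted p = 0.812) and 0.76 ± 0.22 at 1 mM (adjusted p = 0.164), again with knockdown above control at 1 mM without overlap.

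For the other members, on the probe sets of 1 gene alone, the knockdown changes lay between -0.38 and 0.30. Gfpt2 at 1 mM was the lowest (-0.38 ± 0.24) and Gnpda1 at 1 mM the highest (0.30 ± 0.17). The probe set shared by Gnpda1 and Gm8615 lay above this range. It was at 0.52 ± 0.12 at 10 mM (limma, adjusted p = 0.12) and 0.44 ± 0.12 at 1 mM (adjusted p = 0.156), called at neither. Gnpnat1, which differed most with glucose, was at 0.12 ± 0.17 at 10 mM and at -0.16 ± 0.17 at 1 mM. Its 95% confidence intervals, -0.27 to 0.51 and -0.55 to 0.24, leave out a change of the size that glucose gave. The myotube markers were called lower with knockdown in 3 of 6 members at 10 mM and in 5 of 6 at 1 mM. The changes of all 6 lay between -1.73 and -0.26 at 10 mM and between -2.23 and -0.66 at 1 mM. The part of this in the values above was not tested. No interaction was called for any of the 9 genes, beside 0% of all tested genes, and 1 member, Gfpt1, had an unadjusted p under 0.05, beside 1049 of the 13308 tested genes. The knockdown comparisons use the same arrays as the glucose comparisons, so the high level of Gfpt1 in knockdown cells at 1 mM enters both.

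The order of the 4 groups also differed from gene to gene. Gnpnat1 and Gfpt2 had the order control at 1 mM, knockdown at 1 mM, knockdown at 10 mM and control at 10 mM, from high to low. In Gnpnat1 the step between the glucose levels was 1.45 and the steps within a glucose level, 0.16 and 0.12, were within the replicate spread. Gfpt1, Gnpda1 and Gnpda2 had their highest mean in knockdown cells at 1 mM, followed by knockdown cells at 10 mM. The step from there to the next group (0.05, 0.06 and 0.17) was within the replicate spread for each. For Gnpda2 the first step, 0.15, was within that spread too. Pgm3 and Uap1 also had their highest mean in knockdown cells at 1 mM, by steps of 0.01 within the replicate spread. Across the 8 arrays Gfpt1 correlated with Gnpda2 at r = 0.74 and with Gnpda1 at 0.73, but with Gfpt2 at -0.01, while Gfpt2 correlated with Pgm3 at 0.90 and with Gnpnat1 at 0.88. These coefficients describe 8 arrays of 4 groups and include the differences between groups.

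By the same measure the tested genes most like Gfpt1 were Fgfr1, Carmil3, Mapk1ip1l, Tmc8 and Fam117b (r = 0.95 to 0.92). Those most like Ogt were Pdss2, Samd8, Mir674, Dtwd2 and Firre (r = 0.97 to 0.94). For Gnpnat1, added after its values were seen, they were Xpot, which exports tRNA from the nucleus, Sec61a1, a subunit of the channel into the endoplasmic reticulum, Slc50a1, Naa25 and Seh1l (r = 0.998 to 0.996). A pair of genes that both follow the glucose level reaches a high r over these arrays.

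The other genes of the pathway were read from lists chosen with earlier results of these data known. Of 10 tested genes of amino sugar and sialic acid metabolism, 2 were called lower and 0 higher in knockdown cells (median -0.39). In control cells 4 were called lower and 0 higher (median -0.36). Over all tested genes 10.6% were called lower and 14.5% higher in knockdown cells, and 12.1% and 13.2% in control cells. The medians over all tested genes were 0.03 and -0.01. Uap1l1, a paralog of Uap1, fell 2.20-fold in knockdown cells (-1.14 ± 0.22, adjusted p = 0.00862) and 1.88-fold in control cells (-0.91 ± 0.22, adjusted p = 0.0216). Renbp, an epimerase of N-acetylglucosamine, fell by 0.77 ± 0.19 and 0.66 ± 0.19 in knockdown and control cells. Gne, which takes UDP-GlcNAc into sialic acid synthesis, fell in control cells alone among the calls (-0.65 ± 0.12, adjusted p = 0.00831), as did Nagpa (-0.60 ± 0.16, adjusted p = 0.0318), and whether the cell types differ was not shown, since no interaction was called.

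Genes that carry or use UDP-GlcNAc went both ways. Of 17 tested, 4 were called higher, 3 lower and 10 did not pass in knockdown cells (median -0.0045). In control cells 5 were called higher, 4 lower and 8 did not pass (median 0.02). Beside this, 14.5% of all tested genes were called higher and 10.6% lower in knockdown cells, and 13.2% and 12.1% in control cells. The hyaluronan synthase gene Has2 read 6.82 and 6.93 in knockdown cells at 10 mM and 4.85 and 4.92 at 1 mM, while control cells read 6.86 and 6.97 at 10 mM and 5.33 and 5.78 at 1 mM. The rise of Has2 was 3.97-fold in knockdown cells (1.99 ± 0.17, adjusted p = 0.000355) and 2.57-fold in control cells (1.36 ± 0.17, adjusted p = 0.00162). Has1, named after its values were seen, rose 2.91-fold and 2.96-fold in knockdown and control cells, but with a mean of 2.53 in knockdown cells at 1 mM signal above background was not shown there.

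Piga, a subunit of the enzyme that puts N-acetylglucosamine on the lipid of GPI anchors, read 4.24 and 4.38 in knockdown cells at 10 mM and 6.34 and 6.49 at 1 mM. Control cells read 4.38 and 4.44 at 10 mM and 5.41 and 5.42 at 1 mM. It fell 4.29-fold in knockdown cells (-2.10 ± 0.13, adjusted p = 0.000137) and 2.01-fold in control cells (-1.01 ± 0.13, adjusted p = 0.00175), and within a single glucose level it was the only gene of the pathway lists called with knockdown, 2.00-fold higher at 1 mM (1.00 ± 0.13, adjusted p = 0.0151). The average over both glucose levels also called Gne higher (0.42 ± 0.09, adjusted p = 0.045) and Hexa, a lysosomal hexosaminidase subunit named after its values were seen, lower (-0.71 ± 0.10, adjusted p = 0.0112). Dpagt1, which starts the lipid-linked N-glycan precursor, fell by 0.83 ± 0.12 and 0.70 ± 0.12 in knockdown and control cells. Slc35d2, a nucleotide sugar transporter, rose by 0.84 ± 0.14 and 0.63 ± 0.14, and Mgat4b fell by 0.76 ± 0.13 in control cells.

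Stress regulators, some of which are known to act on hexosamine genes, were mostly called lower at 10 mM than at 1 mM glucose. Of 6 tested, 6 were called lower in knockdown cells (median -1.38) and 5 in control cells (median -1.30). The list was chosen with earlier results of these data known, so these counts are a description and not a test of such regulators. Over all tested genes 10.6% and 12.1% were called lower in knockdown and control cells, with medians of 0.03 and -0.01. Xbp1, a transcription factor of the unfolded protein response, fell 2.29-fold in knockdown cells (adjusted p = 0.00135) and 2.41-fold in control cells (adjusted p = 0.00125). Atf4, a transcription factor of the amino acid response, fell 2.98-fold and 2.70-fold, Ern1, the sensor that splices Xbp1, 2.95-fold and 2.50-fold, and Atf6, another sensor, 2.03-fold and 1.98-fold in knockdown and control cells. Ddit3, a target of Atf4, fell by 3.34 ± 0.13 and 3.38 ± 0.13. Nfe2l1 fell by 0.46 ± 0.13 in knockdown cells (adjusted p = 0.0442) and was at -0.39 ± 0.13 in control cells (adjusted p = 0.0724). None of the 6 was called with knockdown at either glucose level, where their changes lay between -0.20 and 0.22. Of the 9 hexosamine genes, Gnpnat1, Gfpt2 and Pgm3 had all 4 arrays at 10 mM below all 4 at 1 mM. The other members, Gfpt1 among them, did not. The share of all tested genes separated in this way was not determined, so the separation does not set these genes apart. Within a single cell type, replicates did not overlap for 64.2% of tested genes in knockdown cells and 64.4% in control cells. Whether the stress regulators have a part in the values of any member was not tested.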

How the data were processed

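RNA from 8 C2C12 cultures was measured on 8 arrays, 2 per group. The authors deposited 1 log2 value for each of 41345 probe sets; per the submitters' processing notes, the tools were affy and RMA; package version and probe design build are not given in the sources used here. RMA adjusts arrays towards each other and compresses differences at low signal, so it can hide a shift common to the whole transcriptome; the array medians lay between 5.89 and 6.02. The number of arrays limits the precision.

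Gene names came from GEO's platform annotation (23521 with 1 gene, 1814 with several, 16010 with none), and gene IDs of 23328 matched the GRCm38.p6 table, which changed 0 symbols. Each gene took its single-gene probe set with the highest mean. Genes under the 40th percentile (2.30) were left out, which left 13308. limma 3.58.1 in R 4.3.3 was fitted to 4 group means over all 8 arrays, without trend or robust options (4 residual and 3.36 prior degrees of freedom), with two-sided tests and Benjamini-Hochberg adjustment, and the code was tested on simulated data. Signal above background was taken as not shown for a group mean under 3, a bound set with the data known. The members and lists, and the rule for naming genes (all members, every stress regulator, up to 4 called genes per other list and contrast, and the 5 genes most correlated with Gfpt1 and Ogt), were chosen with earlier results of these data known. Some listed genes were not analysed here, and Npl did not pass the filter. Promoters are RefSeq sequences of GRCm38.p6.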

Additional observations from a re-analysis of the deposited data

Results flagged for a closer look

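Uap1 drew attention because every array at 10 mM glucose lay below every array at 1 mM in knockdown cells (6.49 and 6.62 against 6.66 and 7.0), and above every array at 1 mM in control cells (6.78 and 6.85 against 6.50 and 6.67). A lack of overlap, in either direction, was common, at 64.2% of tested genes in knockdown cells and 64.4% in control cells. The difference between the 2 responses, knockdown minus control, was -0.50 ± 0.22, with a 95% confidence interval of -1.02 to 0.01, and did not pass the test (limma, adjusted p = 0.642).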

How the results depend on the processing

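The fall of Gnpnat1 with glucose passed the test in both cell types under all 15 alternatives run for each (adjusted p up to 0.011 in knockdown cells and up to 0.00694 in control cells). No called member changed sign under any alternative. The count of members called for glucose ranged from 1 to 2 in knockdown cells and from 1 to 3 in control cells when each array was left out in turn, and was 0 for both knockdown effects and the interaction. With no filter on dim genes it was 1 in knockdown cells, where the call of Gfpt1 was lost (limma, adjusted p = 0.0764). The knockdown effect counted 1 member at 1 mM with the stricter filter at the 60th percentile, 1 at 1 mM with a trended, robust variance and 1 at 10 mM with that variance, against 0; the cause was not tested. Replicate numbers did not pair the samples (correlation of deviations -0.04 to 0.11). The replicate block gave 2 members in knockdown cells and 3 in control cells, where Pgm3 then passed (adjusted p = 0.0408), and changed no other call of a member. Pgm3 in control cells also passed with the stricter filter (adjusted p = 0.0314), the trended variance (adjusted p = 0.0222) and without control replicate 1 at 10 mM (-0.88, adjusted p = 0.045). Over all genes, the count for the knockdown effect was 437 and 291 at 1 mM and 10 mM with the stricter filter, 598 and 467 with the trended variance, 18 and 6 with only the 4 arrays of the contrast and 134 and 73 with the replicate block, against 198 and 149; without a filter it was 69 at 10 mM. Leaving out an array gave 30 to 129 and 0 to 76, and 1903 to 3185 and 2046 to 3251 for glucose in knockdown and control cells, against 3342 and 3372. The trended variance called 1 gene for the interaction, against 0. Centring arrays moved the share of calls that were higher with glucose in knockdown cells to 46.9%, against 57.9%, and in control cells to 46.4%, against 52.2%. Dim signal limits Gfpt2, Has1 and the probe set shared by Smarcd3 and Chpf2, and 2 arrays per group limit every value.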
